A study of Mus musculus with 18 samples.

Results

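Alms1 and its pseudogene Alms1-ps2 were described in RNA of mouse optic nerve head, where ganglion cell axons gather to form the optic nerve. Both were found by their Ensembl gene identifiers, ENSMUSG00000063810 for Alms1 and ENSMUSG00000090098 for Alms1-ps2. They are 2 of 55416 genes listed, with 7 transcripts between them, and both were among the 15118 genes that passed the filter on low counts and were tested. The pair was chosen by measured values, namely a lower level of Alms1-ps2 under the EDA label at both ages. Those differences of Alms1-ps2 are therefore given as a description with no test, and the tests are on Alms1, on age and on isoform shares.

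Tissue was cut from sections by laser capture microdissection, and RNA was copied into cDNA with a low-input kit before sequencing. The 18 libraries were labelled by strain and age: 3 from B6.EDA+/+ mice at 22 months, 5 from C57BL/6J mice at 22 months, 5 from B6.EDA+/+ mice at 12 months and 5 from C57BL/6J mice at 12 months. B6.EDA+/+ mice are known to carry a fibronectin gene whose extra domain A (EDA) exon is always kept in the transcript. In the isoform estimates that exon did not follow the labels. Among Fn1 isoforms that span it, its share of TPM had a median of 4.1% in libraries labelled B6.EDA+/+ and 4.45% in those labelled C57BL/6J. It was at 0 in 4 of 8 and in 5 of 10 of them, and reached at most 58.5% and 100%. Estimates that run from 0% to 100% within the C57BL/6J label are too uneven to show whether the labels hold. The groups are therefore called EDA-labelled and control-labelled. The labels do not state the sex of the mice or how many animals the libraries stand for, so p-values cover no more than the library-to-library spread, part of which may be technical. Library totals ran from 13097498 to 18488733 expected counts, and summed CPM (counts scaled to a common library size) of 6 astrocyte markers ran from 6790 to 14400 in 17 libraries and reached 32400 in EDA-labelled 12-month replicate 4. Of these 6 markers, 5 were above 0 in every library. Summed CPM of 6 oligodendrocyte markers was less even. It ran from 350 in control-labelled 12-month replicate 5 to 28700 in control-labelled 22-month replicate 3, and was 26500 in EDA-labelled 12-month replicate 3. Xist exceeded the Y-linked genes in 5 libraries: EDA-labelled 22-month replicate 1, EDA-labelled 12-month replicates 4 and 5, and control-labelled 12-month replicates 1 and 2.

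Alms1 encodes a very large protein of the centrosome and of the basal body, the centriole that anchors a cilium. Loss of the human gene causes Alström syndrome, in which photoreceptors degenerate and obesity, diabetes and heart disease follow. A domain at the end of the protein, the ALMS motif, is shared with Cep295, a centriole protein. A pseudogene is a gene copy thought to have lost the function of its parent, and an unprocessed one arises by duplication of genomic DNA and so keeps the introns of its parent.

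In the GENCODE M21 annotation, which is on build GRCm38, all 3 copies lie on the plus strand of chromosome 6. Alms1 spans chr6:85587531-85702753 and is protein-coding. A first pseudogene, Alms1-ps1 (ENSMUSG00000090256), spans chr6:85721925-85756526 and starts 19.2 kb after the end of Alms1. Alms1-ps2 spans chr6:85774393-85804057 as a transcribed unprocessed pseudogene and starts 71.6 kb after the end of Alms1. Alms1-ps1 was not chosen as a member, but it is described beside them because the copies share sequence. In the RefSeq table for GRCm38.p6 the Alms1 model ends later, at 85726611, which is 4689 nt past the start of the RefSeq model of Alms1-ps1. The deposited files use build GRCm39, so these positions describe the annotation only, although the transcript lengths in M21 equal the deposited lengths for all 8 transcripts of the 3 genes.

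The long transcript of the pseudogene (ENSMUST00000161983) has 9 exons and 2290 nt, against 23 exons and 9986 nt of the main coding transcript of Alms1 (ENSMUST00000072018). Of the former, 99.8% aligned to positions 7699 to 9984 of the latter, that is to exons 15 to 23, the last exons of the parent, with 2 bases of exon 14. Over 2286 aligned columns the pair had 23 substitutions and 1 gap base, an identity of 98.95%. Exons 2 to 8 of the pseudogene have the lengths of exons 16 to 22 of Alms1, for example 1154 nt for exon 2 and for exon 16. The single Alms1-ps1 transcript (ENSMUST00000159498) matched the main Alms1 transcript at 98.34% and the long Alms1-ps2 transcript at 98.94%. The 3 transcripts are shown over the 150 coding bases at which they differ most, with capitals at the 10 positions where not all 3 have the same base. Each such position separates only the copies whose bases differ there, so a read over it alone may not be placed among all 3. The same holds for substitutions elsewhere. The first is exon 16 of Alms1 at chr6:85678378-85678527, the second exon 2 of Alms1-ps1 at chr6:85727346-85727495 and the third exon 2 of Alms1-ps2 at chr6:85779822-85779971, all GRCm38, plus strand, 5′ to 3′.
Alms1: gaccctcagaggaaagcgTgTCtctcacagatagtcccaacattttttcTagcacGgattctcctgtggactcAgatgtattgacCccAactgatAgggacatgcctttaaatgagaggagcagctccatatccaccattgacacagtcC
Alms1-ps1: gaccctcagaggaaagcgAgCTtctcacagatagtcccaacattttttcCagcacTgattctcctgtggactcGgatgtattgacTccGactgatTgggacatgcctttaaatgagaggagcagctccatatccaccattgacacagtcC
Alms1-ps2: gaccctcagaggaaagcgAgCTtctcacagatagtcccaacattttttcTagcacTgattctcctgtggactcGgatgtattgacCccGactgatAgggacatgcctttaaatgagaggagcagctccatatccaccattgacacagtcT
In this stretch Alms1 and Alms1-ps2 differ at 7 positions, Alms1 and Alms1-ps1 at 9, and the pseudogenes from each other at 4.

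Substitutions are written with the base of Alms1 first, the position counted from 1 at the 5′ end of the main Alms1 transcript, and the base of Alms1-ps2 last. Of the 23 substitutions, 13 lie in exon 16 of Alms1, 4 in exon 19, 3 in exon 22, 2 in exon 23 and 1 in exon 18. At 17 of them Alms1-ps1 carries the same base as Alms1-ps2, for example T8631A and G8668T in the printed stretch. At 4 of them, G8186A, G8524T, C8762T and A9165G, Alms1-ps1 has the base of Alms1. The other 2, T9921A and A9973G, lie in the untranslated end beyond the match of Alms1-ps1. The longest run of the long Alms1-ps2 transcript without a difference from Alms1 is 487 nt and starts at its position 6. The reading frame of Alms1 runs in the long Alms1-ps2 transcript over 723 codons to the same stop, with 11 codons that change the amino acid. In the Alms1-ps1 transcript that frame meets a stop after 418 of 722 codons.

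**Figure D1:**
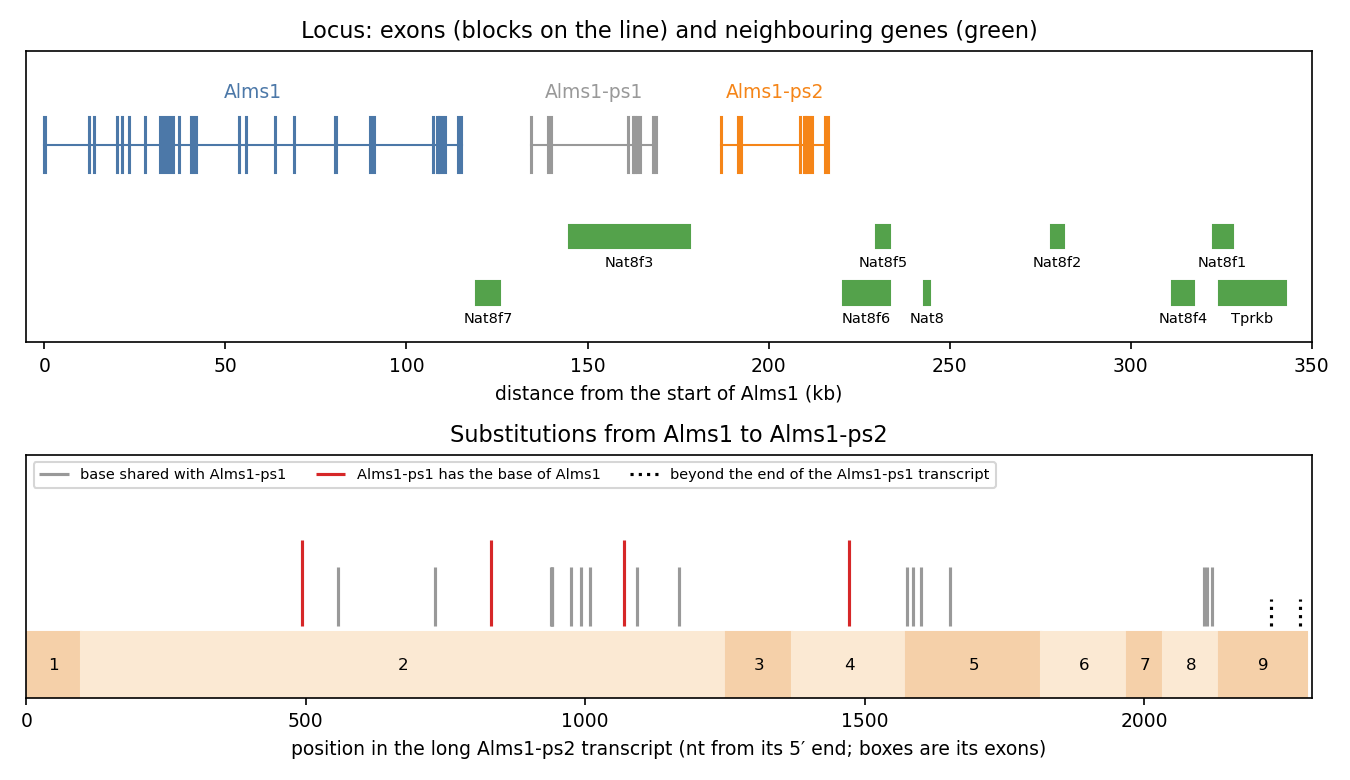
The upper panel draws the exons of the main Alms1 transcript, the Alms1-ps1 transcript and the long Alms1-ps2 transcript and the genes of the Nat8 family with Tprkb by distance from the start of Alms1 in kb, and the lower panel draws the 23 substitutions from Alms1 to Alms1-ps2 by position in the pseudogene transcript in nt, above its 9 exons. The 3 copies lie in a row, and 13 substitutions fall in exon 2 of the pseudogene, which holds 1154 of its 2290 nt. Long stretches free of any lie in other exons and also in exon 2.

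This identity bears on every value below, because RSEM divides reads that match several transcripts by estimated likelihood. Of all 150 nt windows of the long Alms1-ps2 transcript, 38.3% occur unchanged in a transcript of Alms1, 27.2% in Alms1-ps1 and 48.0% in either. Of the windows of the main Alms1 transcript, 10.0% occur in a pseudogene, since most of the parent transcript has no copy. At the mean fragment length of each library, the share of Alms1-ps2 windows found in either copy ran from 41.4% in control-labelled 12-month replicate 5 to 60.1% in EDA-labelled 22-month replicate 3, which has the shortest fragments (98.8 nt). The deposited counts of Alms1 and Alms1-ps2 were not whole in 18 of 18 libraries, so each rests in part on divided reads. In GENCODE M21 no exon of the 3 genes overlaps an exon of another gene.

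Alms1-ps2 was low in all EDA-labelled libraries at 22 months and in most at 12 months. In TPM (a level scaled for transcript length and library total) it was listed at 2.69, 2.68 and 2.01 in the EDA-labelled 22-month libraries. The control-labelled 22-month libraries had 12.5, 12.15, 10.13, 8.15 and 5.67 TPM. Every EDA-labelled library thus lay below every control-labelled library at 22 months, and the 3 EDA-labelled values lay close together. On log2 CPM, 2.16% of the 15118 tested genes had every EDA-labelled 22-month library below every control-labelled one, a share given as background only, since the choice of the gene used this contrast.

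At 12 months the EDA-labelled libraries had 4.04, 4.32, 1.48, 2.9 and 7.34 TPM of Alms1-ps2. The control-labelled 12-month libraries had 6.38, 15.27, 13.23, 12.57 and 6.19 TPM. The groups overlapped here: EDA-labelled replicate 5, at 7.34 TPM, lay above control-labelled replicates 1 and 5. The other 4 EDA-labelled libraries lay below all 5 control-labelled ones. A full separation in that direction was found for 0.423% of tested genes at 12 months, again as background.

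The group means of Alms1-ps2 were 2.46 ± 0.39 TPM (SD, n = 3) and 9.72 ± 2.86 TPM (SD, n = 5) for EDA-labelled and control-labelled libraries at 22 months. At 12 months they were 4.02 ± 2.17 TPM and 10.7 ± 4.18 TPM (SD, n = 5 each). From the highest to the lowest mean the order was control 12 months, control 22 months, EDA 12 months, EDA 22 months, and each neighbouring pair in that order overlapped. The EDA-labelled 22-month libraries lay apart from both control-labelled groups, of which the 12-month group differs in age as well as in label. The share of all genes with such a separation from the 12-month controls was not counted, and the gene was chosen for its low level under the EDA label. On log2 CPM the difference of means, EDA-labelled less control-labelled, was -2.03 at 22 months and -1.69 at 12 months, against standard deviations within groups of 0.07 to 0.81. The fitted differences of edgeR were -2.15 ± 0.61 (SE), which is 4.44-fold lower, and -1.67 ± 0.49 (SE), which is 3.17-fold lower.

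**Figure D2:**
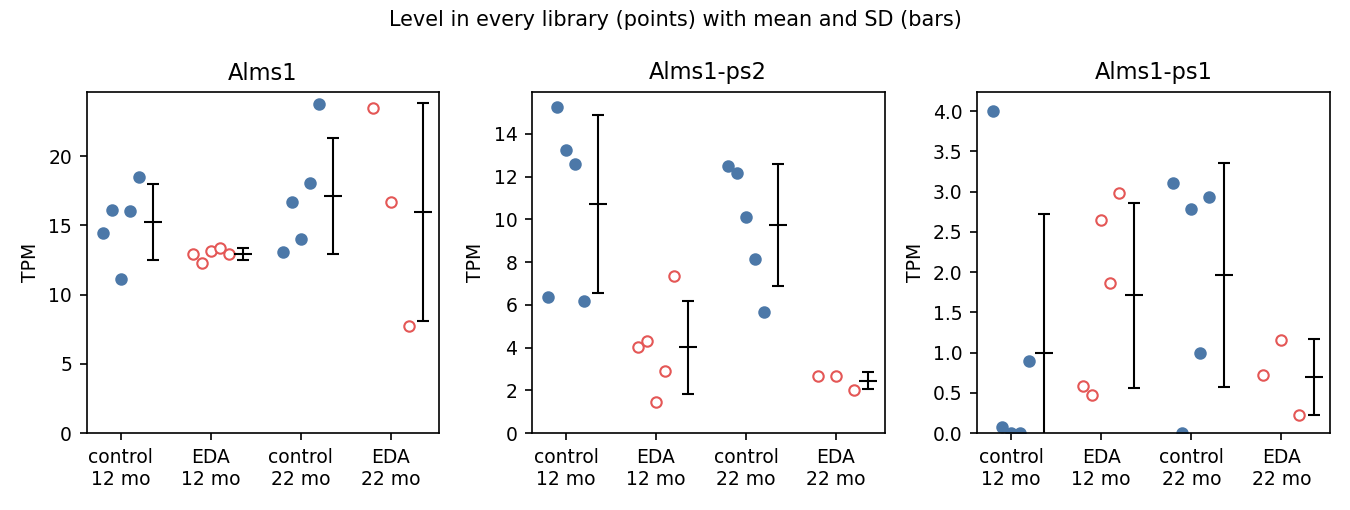
Level in TPM of Alms1, Alms1-ps2 and Alms1-ps1 (vertical axes, each on its own scale) in each library of the 4 groups (horizontal axis), with points for libraries and bars for the mean and SD, cut at 0 for Alms1-ps1. Alms1-ps2 lies between 2.01 and 2.69 TPM in EDA-labelled libraries at 22 months and between 5.67 and 12.5 TPM in the control-labelled ones, while the groups of Alms1 overlap.

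These levels rest on few reads: 38.36 to 152.53 expected counts of Alms1-ps2 in EDA-labelled and 129.39 to 343.92 in control-labelled libraries. Across all genes the edgeR quasi-likelihood test with Benjamini-Hochberg adjustment called 0 of 15118 in either genotype comparison, with 599 and 689 at an unadjusted p under 0.05. DESeq2 called 34 and 22 genes, and limma voom 1 and 2. In bulk tissue, fewer cells that express a gene and less RNA of it per cell cannot be told apart.

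Markers of other cell types were read beside this difference. Summed CPM of 6 skeletal muscle markers ran from 5.64 to 250 in EDA-labelled and from 0.175 to 1.75 in control-labelled libraries at 22 months. The highest was EDA-labelled replicate 1, and the other 2 EDA-labelled libraries had 5.64 and 13.2. Of these 6 markers 0 were above 0 in every library, and Ckm and Myh4 were at 0 in 17 of 18. Photoreceptor markers summed to 22.6 to 83 CPM in EDA-labelled libraries. In control-labelled ones they summed to 3220 CPM in replicate 2 and to 1.04 to 15.4 CPM in the other 4, below every EDA-labelled library. Of these 8 markers only Gnat1 was above 0 in every library, and Pdc was at 0 in 16 of 18. The part of these cells in the difference of Alms1-ps2 was not tested.

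At 12 months the skeletal muscle sums overlapped, at 1.61 to 6.68 CPM in EDA-labelled and 0 to 8.96 CPM in control-labelled libraries. Over both ages ENSMUSG00000119584, a gene with no symbol here, took 3.26% to 17.27% of expected counts in EDA-labelled and 10.72% to 32.85% in control-labelled libraries. With its share as a covariate the fitted difference of Alms1-ps2 was -1.92 at 22 months and -1.53 at 12 months. With only the libraries in which Y-linked genes exceeded Xist, an alternative chosen after seeing the data, the difference of means was -2.03 and -1.88. This leaves out the 5 libraries in which Xist was higher, so the groups are smaller. These values describe again the difference for which Alms1-ps2 was chosen. The part of sex or of ENSMUSG00000119584 in it was not tested.

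Alms1, the parent gene, was more abundant per length than Alms1-ps2 in 17 of 18 libraries. The EDA-labelled 22-month libraries had 23.45, 16.66 and 7.75 TPM of Alms1. The control-labelled 22-month libraries had 13.09, 16.67, 14.04, 18.09 and 23.76 TPM. The highest and the lowest of these 8 values were in a control-labelled and an EDA-labelled library, and the groups overlapped over most of their range. The lowest, EDA-labelled replicate 3, was the library with the shortest fragments, and the part of fragment length in its value was not tested.

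At 12 months the EDA-labelled libraries had 12.91, 12.25, 13.16, 13.39 and 12.91 TPM of Alms1, a narrow band. The control-labelled 12-month libraries had 14.43, 16.13, 11.1, 16.07 and 18.52 TPM. Of these 5, 4 lay above every EDA-labelled library and replicate 3 lay below them all, so the groups overlapped. Group means of Alms1 were 16 ± 7.87 (n = 3), 17.1 ± 4.21, 12.9 ± 0.426 and 15.2 ± 2.74 TPM (SD, n = 5 each) in the order EDA and control at 22 months, then EDA and control at 12 months. Every pair of groups overlapped.

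Alms1 did not pass the test in any comparison. The fitted log2 fold change, EDA-labelled over control-labelled, was -0.09 ± 0.31 (SE) at 22 months, with an adjusted p of 1 in the edgeR quasi-likelihood test. Its direction at 22 months was not stable, since it was 0.10 without EDA-labelled replicate 3, 0.11 without control-labelled replicate 5 and 0.22 with limma voom. At 12 months the log2 fold change was -0.50 ± 0.27 (SE), with an unadjusted p of 0.0763 and an adjusted p of 1 in edgeR. The lowest unadjusted p among the alternatives was 0.0119, with limma voom, where the adjusted p was 0.559. The 12-month log2 fold change kept its sign in all 27 alternatives, from -0.59 to -0.40. Some of these could hardly move it: each fit without a 22-month library, or with only the pseudogene counts summed, gave -0.50.

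Age was tested within each label. The choice of Alms1-ps2 did not use this contrast but did use the levels of the same libraries. The age tests of Alms1-ps2 are therefore not independent of that choice. From 12 to 22 months Alms1-ps2 differed by -0.15 ± 0.48 (SE) on the log2 scale in control-labelled and by -0.63 ± 0.57 (SE) in EDA-labelled libraries, and edgeR gave an adjusted p of 1 for both. Without control-labelled 12-month replicate 2 the first of these was 0.07. The label difference of Alms1-ps2 at 22 months less that at 12 months was -0.48 ± 0.74 (SE), given with no test because it is made of the differences that chose the gene.

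For Alms1, age gave 0.11 ± 0.26 (SE) in control-labelled and 0.51 ± 0.30 (SE) in EDA-labelled libraries, with edgeR adjusted p-values of 1 and 0.965. The first turned to -0.09 without control-labelled 22-month replicate 5 and to -0.11 with limma voom. The second was 0.68 with limma voom (unadjusted p 0.0108, adjusted p 0.528). The interaction of Alms1 was 0.40 ± 0.40 (SE), with an adjusted p of 1 in edgeR, and 0.79 with limma voom (unadjusted p 0.0238, adjusted p 0.773). In these 3 comparisons edgeR called 0 of 15118 genes, with 530 (3.51%), 753 (4.98%) and 608 (4.02%) at an unadjusted p under 0.05, DESeq2 called 23, 41 and 32, and limma voom 0, 0 and 1.

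The level of the pseudogene relative to its parent followed from both. TPM of Alms1-ps2 was 11.5%, 16.1% and 25.9% of that of Alms1 in EDA-labelled libraries at 22 months. In control-labelled libraries of that age it was 95.5%, 72.9%, 72.2%, 45.1% and 23.9%. The groups overlapped by 1 library each, since control-labelled replicate 5, with the highest Alms1 and the lowest Alms1-ps2 of its group, fell below EDA-labelled replicate 3. At 12 months the ratio was 31.3%, 35.3%, 11.2%, 21.7% and 56.9% in EDA-labelled and 44.2%, 94.7%, 119.2%, 78.2% and 33.4% in control-labelled libraries. Control-labelled replicate 3 was the library in which the pseudogene exceeded its parent per length.

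Within groups, no relation between the pseudogene and its parent passed the test across the 18 libraries. After each group's mean was removed, Pearson's r of log2 CPM was -0.06 (permutation p = 0.805, adjusted 0.86 over 3 relations) and Spearman's rho was 0.03 (permutation p = 0.901, adjusted 0.901). Without the 2 libraries farthest from the median of Alms1, r was 0.12. On log2(TPM + 0.1) r was -0.16 (permutation p = 0.536) and rho -0.30 (permutation p = 0.234), and r was -0.42 without the 2 farthest libraries. The 2 pseudogenes had an r of -0.46 (permutation p = 0.0517, adjusted 0.155) and a rho of -0.46 (permutation p = 0.0544, adjusted 0.163), and an r of -0.33 without the 2 farthest libraries. Alms1 and Alms1-ps1 had an r of 0.05 (permutation p = 0.86, adjusted 0.86) and a rho of -0.09 (permutation p = 0.735, adjusted 0.901), and an r of -0.11 without 2 libraries. Tested over all libraries, 0 of these 3 relations passed adjustment.

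Alms1-ps1, the other pseudogene, was lower still and more uneven. It had 0.72, 1.16 and 0.22 TPM in EDA-labelled and 3.11, 0, 2.78, 0.99 and 2.93 TPM in control-labelled libraries at 22 months. At 12 months it had 0.59, 0.48, 2.65, 1.86 and 2.98 TPM in EDA-labelled and 4, 0.08, 0, 0 and 0.89 TPM in control-labelled libraries. All 3 libraries listed at 0 were control-labelled, and they had 12.15 TPM or more of Alms1-ps2. The part of divided reads in these values was not tested. The edgeR log2 fold changes of Alms1-ps1 were -1.63 ± 1.71 (SE) at 22 months and 0.52 ± 1.39 (SE) at 12 months, with an adjusted p of 1 for both.

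Since reads may be divided between the pseudogenes, their counts were also summed, an alternative added after seeing the data. Summed counts were 74.2, 75.9 and 43.7 in EDA-labelled and 354.6, 251.4, 277.4, 204.4 and 192.4 in control-labelled libraries at 22 months. At 12 months they were 90.6, 104.7, 105.9, 104.6 and 210.9 in EDA-labelled and 258, 340.5, 322.6, 343.9 and 151.8 in control-labelled libraries. The 22-month groups did not overlap in the sum, and at 12 months EDA-labelled replicate 5 alone lay above a control-labelled library. At 22 months Alms1-ps2 held 67.3% to 100% of the sum. The separation therefore largely repeats the values for which the gene was chosen and is no support for them. For single genes on log2 CPM the share with such a separation at 22 months was 2.16%, given as background only. The difference of mean log2 CPM of the sum was -1.96 at 22 months and -1.30 at 12 months. Alms1-ps2 held from 37.3% of the summed counts, in EDA-labelled 12-month replicate 3, to 100%.

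**Figure D3:**
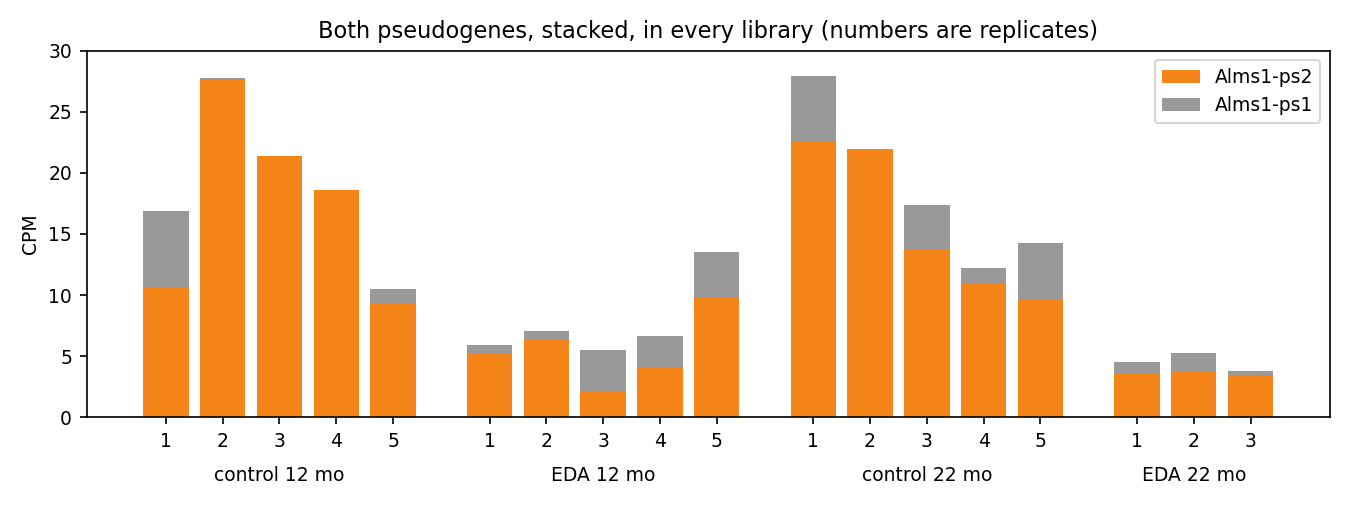
CPM (vertical axis) of Alms1-ps2 and, stacked on it, Alms1-ps1 in each of the 18 libraries, numbered by replicate within the 4 groups (horizontal axis). The sum lies between 3.78 and 5.23 CPM in EDA-labelled and between 12.21 and 27.94 CPM in control-labelled libraries at 22 months, and EDA-labelled 12-month replicate 5 stands above its group at 13.51 CPM.

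The isoforms of Alms1 were estimated separately in the deposited tables. The main coding transcript had a mean of 10.4 TPM over the 18 libraries and held 46.9% to 94.8% of Alms1 TPM (median 65.7%). The second coding transcript (ENSMUST00000213058), of 11163 nt and also with 23 exons, had a mean of 3.25 TPM, held 0% to 50% (median 22.65%) and was at 0 in 1 library. Of the retained-intron transcripts, ENSMUST00000201221 held a median of 8.25% (highest 21%), ENSMUST00000201244 a median of 0.8%, and ENSMUST00000202809 was at 0 in 10 libraries.

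The share of the main transcript was 60.0% ± 7.4 (SD, n = 3) for the EDA label and 73.1% ± 13.4 (SD, n = 5) for the control label at 22 months, and an exact two-sided permutation test gave p = 0.179 (adjusted 0.358 over the 2 ages). The ranges overlapped, at 52.8% to 67.6% and 62.3% to 94.8%. At 12 months the share was 63.5% ± 11.8 and 69.7% ± 7.7 (SD, n = 5 each), and the exact permutation test gave p = 0.365 (adjusted 0.365). The difference of -13.2 percentage points at 22 months was -7.7 without control-labelled replicate 5, and that of -6.2 at 12 months was -2.0 without EDA-labelled replicate 4. At 22 months the share of the second coding transcript ran from 25.9% to 42.3% in EDA-labelled and from 0% to 23.5% in control-labelled libraries. This separation was seen after the values were examined and was not tested. How many of all isoforms separate in this way was not counted. At 12 months the ranges of the second coding transcript, 2.1% to 50% and 2.2% to 35.5%, overlapped.

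**Figure D4:**
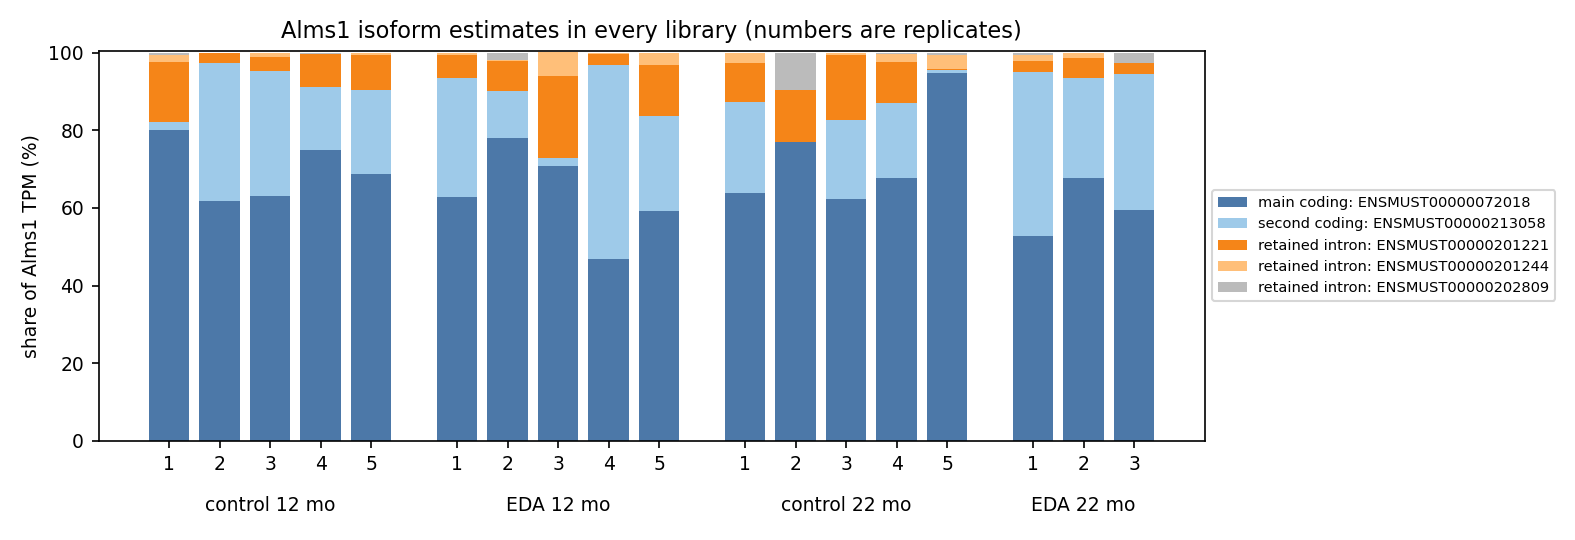
Share of Alms1 TPM in percent (vertical axis) held by each of the 5 Alms1 isoforms in each of the 18 libraries, numbered by replicate within the 4 groups (horizontal axis). The main transcript is the largest piece in all libraries but EDA-labelled 12-month replicate 4, where it holds 46.9%, and reaches 94.8% in control-labelled 22-month replicate 5.

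Of the 2 transcripts of Alms1-ps2, the long one carried nearly all of its level, with a mean of 7.09 TPM and a range of 1.02 to 15.27 TPM. The short one (ENSMUST00000160606, 8 exons, 1170 nt) starts inside the gene at chr6:85792117-85804057, the same position at which the RefSeq model of the pseudogene begins. It was at 0 in 14 of 18 libraries. Its highest level was 0.99 TPM, or 49.3% of the gene, in EDA-labelled 22-month replicate 3, where it rested on 12.3 expected counts. In those 14 libraries the level of the gene was that of its long transcript alone.

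Among genes of the cilium and centrosome, 0 passed the edgeR test between the labels at either age. They form lists drawn up with earlier results of these data known, which were not tested as lists, and each is given by counts and median beside the median over all tested genes, which was -0.07 at 22 months and -0.01 at 12 months. Of 13 genes of the BBSome, the coat complex that carries membrane proteins into and out of the cilium, and its helpers, 12 were tested. Of these, 5 lay above and 7 below 0 at 22 months (median -0.21), and 7 above and 5 below at 12 months (median 0.19). Bbs9, a BBSome subunit, had log2 fold changes of 0.54 ± 0.50 (SE) and 0.63 ± 0.44 (SE). Arl6, the GTPase that recruits the BBSome to membranes, had -0.63 ± 0.95 (SE) and -0.82 ± 0.81 (SE).

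Of 26 genes of intraflagellar transport, the motor-driven traffic along the cilium, 24 were tested, with 13 above and 11 below 0 at 22 months (median 0.05) and 10 above and 14 below at 12 months (median -0.23). Dync2h1, the heavy chain of the motor that returns cargo from the tip, had -0.39 ± 0.49 (SE) and -0.69 ± 0.42 (SE). Of 18 tested genes of the transition zone, the gate at the base of the cilium, 6 lay above and 12 below 0 at 22 months (median -0.42), and 8 above and 10 below at 12 months (median -0.13). Of the tested members of these 3 lists 0 passed at either age, and 0 had an unadjusted p under 0.05 in edgeR, against 3.96% and 4.56% of all tested genes.

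Of 24 tested genes of centrioles and pericentriolar material, 13 lay above and 11 below 0 at 22 months (median 0.08), and 7 above and 17 below at 12 months (median -0.32). Cdk5rap2, which recruits microtubule-nucleating complexes to the centrosome, had -0.54 ± 0.48 (SE) and -0.72 ± 0.41 (SE). Plk4, the kinase that starts centriole duplication, had -2.58 ± 1.36 (SE) and -0.71 ± 1.05 (SE). Cep135, a centriole scaffold protein, had 4.36 ± 1.90 (SE) at 22 months and -1.16 ± 1.60 (SE) at 12 months, and was the single member with an unadjusted p under 0.05 higher at 22 months (background 2.09%). It did not pass adjustment (adjusted p of 1 in edgeR).

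Relatives of Alms1 by the ALMS motif had wide errors and differed in sign between the ages. Cep295 had -4.04 ± 1.81 (SE) at 22 months and 0.50 ± 1.28 (SE) at 12 months, with an edgeR adjusted p of 1 for each. Its unadjusted p was 0.0376 at 22 months, where 1.87% of all tested genes were lower with an unadjusted p under 0.05. Its interaction was -4.54 ± 2.15 (SE), with an unadjusted p of 0.0477 (background 2.48%) and an adjusted p of 1 in edgeR. D7Ertd443e, a further gene with an ALMS motif, had -2.09 ± 2.69 (SE) and 1.73 ± 2.18 (SE). Counted with the 3 copies at the Alms1 locus, all 5 tested relatives lay below 0 at 22 months and 2 of 5 at 12 months, but Alms1-ps2 itself was chosen for this direction.

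Other pseudogenes named by the suffix -ps and a number were mostly too low to test: 34 of 1238 passed the filter. At 22 months 15 lay above and 19 below 0 (median -0.22), and at 12 months 19 above and 15 below (median 0.06). Alms1-ps2 is among those below 0 at both ages, the direction it was chosen for. Pisd-ps2 had -0.76 ± 1.29 (SE) at 22 months and 2.32 ± 1.14 (SE) at 12 months. Hsp25-ps1 and Kat6b-ps1 had an unadjusted p under 0.05 in the higher direction at 12 months (background 2.96%), at 3.88 ± 1.83 (SE) and 5.02 ± 2.35 (SE), from means of -1.93 and -2.26 log2 CPM.

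The genes around the Alms1 locus were compared as well, up to 10 on each side of Alms1 and of Alms1-ps2. Of the 25 neighbours 15 were tested, and they include the Nat8 family, acetyltransferase genes that lie in a cluster with the pseudogenes and resemble one another, so that their reads may also be divided. At 22 months 8 lay above and 7 below 0 (median 0.43), and at 12 months 4 above and 11 below (median -0.51). Nat8f4 and Nat8f2 had an unadjusted p under 0.05 in the lower direction at 12 months, as did 1.59% of all tested genes, and at 22 months both lay above 0. In edgeR 0 of 15 passed adjustment at either age. Nat8f3, whose span covers exons 3 to 9 of Alms1-ps1 on the other strand, had 1.26 ± 0.81 (SE) and -1.34 ± 0.73 (SE).

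Nat8f4, the most abundant tested neighbour at a mean of 8.18 log2 CPM, had 0.63 ± 0.33 (SE) at 22 months and -0.76 ± 0.29 (SE) at 12 months. Nat8f1 had 0.80 ± 0.44 (SE) and -0.51 ± 0.39 (SE). Tprkb, a subunit of the complex that modifies transfer RNA, had 0.43 ± 0.28 (SE) and -0.21 ± 0.25 (SE). In the interaction of label and age 12 of 15 neighbours lay above 0 (median 0.65, against -0.07 over all genes), and 4 had an unadjusted p under 0.05 in that direction (background 1.54%): Nat8f4 at 1.39 ± 0.44 (SE), Nat8f2 at 10.46 ± 3.30 (SE), Nat8f3 at 2.59 ± 1.09 (SE) and Nat8f1 at 1.31 ± 0.59 (SE). All 4 had an adjusted p of 1 in edgeR, and Nat8f2 had a mean of only -2.12 log2 CPM. The interaction of Alms1-ps2 was -0.48 ± 0.74 (SE), below 0.

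**Figure D5:**
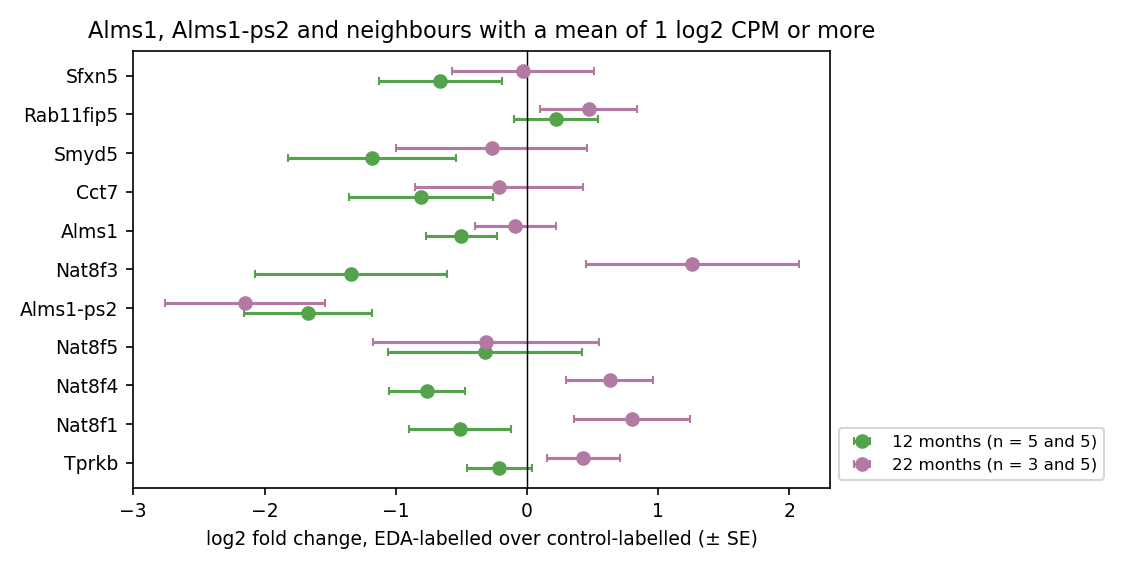
Log2 fold change of EDA-labelled over control-labelled libraries (horizontal axis, points with bars for the SE of edgeR) at 12 and 22 months for Alms1, Alms1-ps2 and the neighbours whose mean log2 CPM was 1 or more, in the order of their position (vertical axis). Alms1-ps2 lies at -2.15 and -1.67, while Nat8f4 lies at 0.63 and -0.76.

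The genes whose levels followed the members most closely over the 18 libraries were named by Pearson's r of log2 CPM among 7222 genes with a mean of at least 2. For Alms1-ps2 these were Olfml2b (r = 0.70), a secreted olfactomedin-domain protein, Srpk2 (0.68), a kinase of splicing factors, Taok2 (0.67), a kinase, Elp5 (0.67), a subunit of Elongator, and Hnrnph1 (0.66), an RNA-binding splicing factor. For Alms1 they were Tsr1 (0.70), a ribosome maturation factor, Manba (0.69), a lysosomal mannosidase, Lnx2 (0.67), a ubiquitin ligase, Irs1 (0.66), an adaptor of the insulin receptor, and Prkch (0.64), a protein kinase C. The points share libraries, scaling and the group differences, and the highest of 7222 coefficients are shown, so these are descriptions only. The lists for Alms1-ps2 and for Alms1 hold no gene in common.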

How the data were processed

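RNA of laser-captured mouse optic nerve head was sequenced in 18 libraries. Per the labels' protocols, SMART-Seq v4 cDNA was tagmented with Nextera XT, without strand information, STAR aligned the read pairs and RSEM estimated their counts. The build GRCm39 is named per the submitters' processing notes, and for the annotation and the tool versions nothing is stated in these sources. The deposited gene and isoform tables hold the authors' expected counts (estimated, 3.59% of gene values not whole) and the authors' TPM. Columns left unmapped numbered 0.

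Symbols were matched for 52083 of 55416 identifiers through GENCODE M21. Expected counts were rounded, filtered with filterByExpr (15118 genes kept), scaled by TMM and fitted in edgeR 4.0.16 (quasi-likelihood, robust, 1 mean for each of 4 groups), with 5 two-sided contrasts and Benjamini-Hochberg adjustment over all genes at a threshold of 0.05. The script was tested on simulated data. Log2 CPM used a prior count of 2. Within groups every pair of libraries differed beyond sampling noise (lowest chi-square per degree of freedom 39.1). Labels gave the groups. Replicate numbers follow accession order and pair nothing. The numbers at the start of the titles do not overlap between groups, so an order they may reflect and the group cannot be told apart. Correlations used 100000 permutations. Transcripts were aligned with Biopython 1.88. Alternatives were DESeq2 1.42.0, limma 3.58.1 (voom with quality weights), RLE scaling, no filter, covariates for Xist against Y-linked genes and for the share of ENSMUSG00000119584, single ages, TPM, summed copies and leaving out each library.

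Named genes were both members with every library, the other relatives of Alms1, up to 4 members of each list with the smallest unadjusted p over both genotype contrasts, of which the text prints a part, and the 5 genes most like each member. The members and the lists were chosen with earlier results of these data known.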

Additional observations from a re-analysis of the deposited data

Results flagged for a closer look

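One library stood apart within its group in 2 related measures. In the 5 EDA-labelled 12-month libraries, the summed count of Alms1-ps1 and Alms1-ps2 was 210.9 in replicate 5, against 90.6 to 105.9 in the other 4, a gap to the nearest library that exceeds Dixon's 95% critical value for 5 samples. On the CPM scale the same library had 13.51, against 5.48 to 7.06 in the others. Chance flags about 1 in 20 such groups, and 24 groups were checked. The same library had 7.34 TPM of Alms1-ps2 and 2.98 TPM of Alms1-ps1, the highest of its group for each, and 12.91 TPM of Alms1, the median of its group.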

How the results depend on the processing

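Of 268 alternative values over 13 results, 6 changed direction. Values without a library of a group outside the comparison could hardly change. The alternative values with an adjusted p all stayed above the threshold of 0.05. The described label differences of Alms1-ps2, which have no test, are counted among the 268. They kept their sign, but this is the direction for which the gene was chosen, so it is no support for the difference. The Alms1 difference at 22 months (-0.09) became 0.22 with limma voom and ranged from -0.35 to 0.11 when each library was left out, above 0 without EDA-labelled replicate 3 (0.10) or control-labelled replicate 5 (0.11). The Alms1 age difference in control-labelled libraries (0.11) became -0.11 with limma voom and ranged from -0.09, without control-labelled 22-month replicate 5, to 0.22. The Alms1-ps2 age difference in control-labelled libraries (-0.15) ranged from -0.32 to 0.07, the latter without control-labelled 12-month replicate 2. The cause was not tested. With each library left out, Alms1 ranged from -0.56 to -0.40 for the label at 12 months, from 0.25 to 0.70 for age in EDA-labelled libraries and from 0.14 to 0.60 for the interaction (0.79 with limma voom), and Alms1-ps2 from -0.85 to -0.32 for age in EDA-labelled libraries and from -0.71 to -0.17 for the interaction. The share of the main Alms1 transcript differed by -17.0 to -7.7 percentage points at 22 months and by -9.8 to -2.0 at 12 months with each library left out, and by -19.8 (exact permutation p 0.0714) and -4.2 in expected counts. The lowest adjusted p of any tested result under any alternative was 0.143, an exact permutation p for the share of the main Alms1 transcript at 22 months in counts. The described label difference of Alms1-ps2 ranged from -2.24 to -1.59 at 22 months and from -1.94 to -1.25 at 12 months, the ends nearest 0 being those on log2(TPM + 1). Counts of called genes differed by tool: edgeR 0 in each of 5 contrasts, DESeq2 34, 22, 23, 41 and 32, and limma voom 1, 2, 0, 0 and 1. No paired analysis was possible because the labels carry no replicate numbers. Depth limits Alms1-ps2, whose EDA-labelled libraries hold 38.36 to 152.53 expected counts, partly divided from other copies.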
